A study of Mus musculus with 2 samples.

Results

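Genes that GENCODE annotates inside or across another gene on the same strand, with no coding sequence of their own, were followed here through nucleoplasmic RNA of macrophages. A sense_intronic gene lies in an intron of its host gene and shares none of the host's exons, whereas a sense_overlapping gene contains or overlaps a host on the same strand. Members were the genes whose transcripts all carry one of these 2 types and that had an expected count of 10 or more in both gene tables. They numbered 127, of 357 genes of the types and 55450 annotated genes, and comprised 123 sense_intronic and 4 sense_overlapping genes. They were chosen by measured values, the expected counts of these same libraries, so their levels are given as a description, with no test.

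Long noncoding RNAs are transcribed by RNA polymerase II and many stay in the nucleus. An RNA made from within an intron can be a transcript with its own start, or a piece of the host's precursor RNA that was cloned and annotated before splicing had removed it. In total RNA, precursor RNA is sequenced along with finished transcripts, so reads from a separate intronic transcript and from unspliced host RNA cannot be told apart in these tables.

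The study holds 2 libraries of ribosomal RNA-depleted total RNA from bone marrow-derived macrophages of C57BL/6J mice, made from the nucleoplasmic fraction (a further label field says nucleus) after exposure to 100 ng/ml Lipid A for 120 min. This lipid anchor of bacterial endotoxin is sensed by toll-like receptor 4. Both libraries belong to 1 group with no untreated control, and RNA input was 1 µg for replicate 1 and 500 ng for replicate 2. The labels call them biological replicates of the same donor entry, so the spread between them may be partly technical, and with 1 group of 2 samples no test between conditions was possible.

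The gene tables held 14374739 and 16372797 estimated counts in replicates 1 and 2, and values are from them unless the read-based tables are named, a further deposited estimate of each library. The 10 macrophage marker genes were at 1 TPM (transcript abundance per length, scaled to the library) or more in both libraries, and their summed level was 1658 and 3671 TPM. The 7 stromal marker genes summed to 76.1 TPM in replicate 1 (4753 counts) and 0.320 TPM in replicate 2 (24 counts), with none at 0 in both. The lists for T cells, B cells, neutrophils, erythroid, endothelial and mast cells summed to between 0.460 and 9.31 TPM in either library. Replicate 1 therefore stands apart by its stromal RNA, and what part this has in the replicate ratios below was not tested.

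The annotated 3′ ends of these genes can be set beside those of other transcript classes. Cleavage of most mRNAs follows a hexamer, AATAAA or its common variant ATTAAA, that lies shortly before the end. The last 50 bases of the 6 genes with the highest mean level and of Peg13, an imprinted noncoding gene chosen after its values were seen, are printed 5′ to 3′ from the GENCODE M21 transcripts (mm10), with a hexamer, where there is one, in capitals.
Gm29488: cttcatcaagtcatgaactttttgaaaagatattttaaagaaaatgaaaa
Gm43728: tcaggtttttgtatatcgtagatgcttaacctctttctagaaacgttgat
Gm48302: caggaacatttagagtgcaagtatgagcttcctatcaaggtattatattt
Gm43727: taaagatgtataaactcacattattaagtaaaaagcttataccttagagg
Gm48194: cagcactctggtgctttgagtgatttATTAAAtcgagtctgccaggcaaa
Gm47664: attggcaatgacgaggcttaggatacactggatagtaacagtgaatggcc
Peg13: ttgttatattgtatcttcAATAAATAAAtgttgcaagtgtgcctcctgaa

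Of these 6 highest genes only Gm48194 held a hexamer, 18 bases before its end, and Peg13 held 2 that overlap, the last of them 22 bases before its end. Over all members, 35 of 134 transcripts (26.1%) had AATAAA or ATTAAA, searched on the transcript strand, in their last 50 bases. The share was 31.3% of transcripts of the other genes of the types, 22.4% of retained_intron transcripts and 29.2% of TEC transcripts (loci the annotation holds as unproven). It was 40.0% of lincRNA, 42.6% of antisense and 50.3% of protein-coding transcripts, and 35.4% of all transcripts of 200 bases or more. No class was filtered for transcripts with a complete 3′ end. Further inside the transcripts, 5.12% of the members' 50-base windows held a hexamer, against 3.12% over all transcripts. A hexamer at the end was thus more frequent than inside the same transcripts, but less frequent than at the ends of lincRNA or coding transcripts. The transcripts had a median GC content of 41.5%, near that of TEC (42.3%) and below that of protein-coding transcripts (50.4%).

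Most genes of the types stayed under the minimum. Of the 230 that are not members, 19 reached 10 counts only in replicate 1, 5 only in replicate 2, 88 were counted below it in both and 118 were at 0 in both, which allows up to 3 counts each. The 123 sense_intronic members are 37.6% of the 327 sense_intronic genes, and the 4 sense_overlapping members are 13.3% of 30. Just inside the threshold were AC154912.5 (10 and 14 counts), Gm42699 (12 and 10) and Gm42700 (18 and 10). Just outside were Gm47587 (15.4 and 9.83), Gm12737 (17 and 9) and Gm12971 (16 and 9). A count of 10 has an exact Poisson interval of 4.80 to 18.4, so membership near the threshold is not settled by the counts. Counting intervals here cover counting error only.

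The members are long and mostly unspliced. Merged over isoforms, 86 members had 1 exon block, 36 had 2, 3 had 3 and 2 had 4, and 120 members had a single annotated transcript. Of all 357 genes of the types, 155 had 1 exon block. The members' median exonic length was 1921 bases (456 to 6071), against 700.5 bases for the other genes of the types. A longer gene takes more counts at the same TPM, so the count minimum itself favours long genes. Whether the difference in length goes beyond that was not tested. Chromosome 3 carried 41 members of its 70 genes of the types, chromosome 1 carried 18 of 35 and chromosome 5 carried 17 of 40. These 3 chromosomes hold most of the members.

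Together the members took 0.153% of counts in replicate 1 (95% Wilson interval 0.151% to 0.155%) and 0.105% in replicate 2 (0.103% to 0.106%), a mean of 0.129% ± 0.0343 (SD, n = 2). The 10 members with the most counts held 37.5% and 38.3% of the members' counts. Their median level was 4.05 TPM in replicate 1 and 2.08 TPM in replicate 2, and the median of the means was 2.95 TPM, with the middle of the range between 1.60 and 6.33 TPM. By the same minimum, the median of mean TPM was 2.90 for 524 antisense genes, 3.50 for 994 TEC genes, 2.15 for 296 lincRNA genes and 6.57 for 10639 protein-coding genes. Members thus sat at the level of the other noncoding classes, and below coding genes. In both libraries 98 members reached 1 TPM and 9 reached 10 TPM.

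The highest member was Gm29488 at chr1:131406812-131409213 (minus strand), an unspliced gene in an intron of Srgap2, which encodes a GTPase-activating protein of the Slit and Robo pathway. It had 1368 and 1230 counts and 44.5 and 26.5 TPM in replicates 1 and 2 (35.5 ± 12.7 TPM, SD, n = 2). Gm43728 (chr5:5309002-5311623) and Gm43727 (chr5:5304356-5307002), neighbours in an intron of the cyclin-dependent kinase gene Cdk14, stood at 32.7 and 19.6 TPM and at 33.5 and 16.2 TPM. Gm48302 (chr13:75727279-75729162), in Ell2, a gene of an RNA polymerase II elongation factor, had 35.8 and 15.5 TPM. These 4 genes lie within each other's spread between libraries and cannot be ordered.

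Gm48194 (chr13:59781062-59781578), 517 bases long and inside the terminal uridylyltransferase gene Tut7, had 35.2 and 12.8 TPM from only 149 and 82 counts. Gm47664 (chr13:20499888-20501227) lies in Elmo1, whose product works with DOCK proteins in Rac activation and the uptake of dying cells, and had 26.5 and 17.9 TPM. Gm42659 in Capza1, a subunit gene of the actin capping protein, had 23.0 and 14.1 TPM. All 3 were higher in replicate 1.

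Gm17193 in the ubiquitin ligase gene Arel1 had 21.4 and 13.9 TPM. Gm38115 in Tmem131 had 25.3 and 9.26 TPM. Outside the 10 highest by level, 4 genes were among the 10 highest by count, namely Gm10484 in Cdk14 (618 and 686 counts), Gm42664 in the splicing regulator gene Ptbp2 (656 and 440), Gm43329 in the small GTPase gene Rap1a (661 and 353) and Gm38190 in Tiprl (505 and 498). Their levels were lower, at 9.66 and 7.11, 15.4 and 6.85, 15.6 and 5.51, and 7.90 and 5.17 TPM, and all 4 genes are over 3 kb long.

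**Figure D1:**
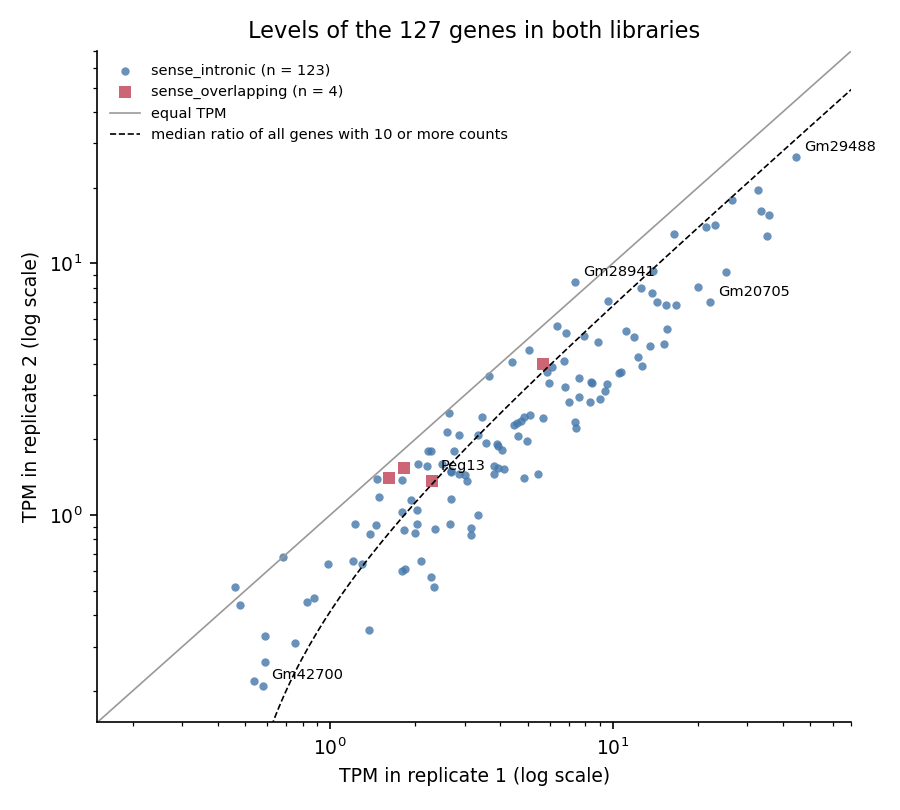
TPM of each of the 127 genes in replicate 1 (horizontal, log scale) against replicate 2 (vertical, log scale), 1 point a gene, squares for the 4 sense_overlapping genes; the grey line marks equal TPM and the dashed line the median ratio over every gene that met the count minimum. Of the 127 points, 124 lie below the line of equal TPM, and Gm29488 is the highest at 44.5 and 26.5 TPM.

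Of the 4 sense_overlapping members, BX649560.1 lay above the members' median of mean TPM (2.95 TPM) and the others below it. BX649560.1 (chr2:180983924-180987275), which starts 2.61 kb upstream of the collagen gene Col20a1 and overlaps its first exons by 2.36% of its length, had 5.69 and 3.98 TPM (210 and 204 counts), while Col20a1 had 1.85 and 0.95 TPM. AC157931.1 (chr5:123508395-123514011), which spans the glycosyltransferase gene B3gnt4 without sharing its exons, had 2.29 and 1.37 TPM, with B3gnt4 itself at 0.210 and 0.0900 TPM. Gm48286 (chr12:111616870-111637388), within the kinase gene Mark3, had 1.83 and 1.54 TPM from 11 and 14 counts. Gm20712 (chr15:58780461-58781951), the only member with no annotated gene of another type on its strand, had 1.62 and 1.40 TPM.

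Peg13 (chr15:72805600-72810324), the paternally expressed noncoding RNA in Trappc9, had 141 and 171 counts and 2.22 and 1.79 TPM, while Trappc9 had 10.8 and 4.33 TPM. The log2 ratio of replicate 2 over replicate 1 was 0.95 higher for Peg13 than for Trappc9. Ppnr in Tcf7l2, the Wnt pathway transcription factor gene, had 11.9 and 5.11 TPM (554 and 359 counts), and Tcf7l2 had 26.2 and 11.8 TPM. Peg13 and Ppnr are among the few members with a name that is no clone or predicted gene number, and were chosen for that after their values were seen.

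To compare the libraries, 1 was added to each TPM value and the log2 of replicate 2 over replicate 1 was taken. From this ratio its median over all 13392 annotated genes that met the same count minimum, -0.50, was subtracted. The constant of 1 TPM understates the change of low genes. It can also turn their sign against the median: Hm629797, with 0.590 and 0.260 TPM and 18 and 12 counts, lay at 0.17. On that scale the members' median was -0.21, and 83 of 127 lay below 0 (50% of all genes do, by construction). Without the constant the median was -0.36. Counts scaled between libraries by TMM and by DESeq2 size factors put 97 and 99 members below 0, where the median of all genes lay near 0. With the constant, only Gm20705 was lower in replicate 2 by a relative log2 ratio of 1 or more (1 of 127, background 2.84%). No member was higher by as much (background 3.32%). Without the constant, 11 members were lower by as much (background 6.18%) and none higher (background 7.47%). By count, 101 of 127 had fewer in replicate 2, against a background of 51.6%.

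Members shared this median with part of the other noncoding classes. The median relative log2 ratio was -0.23 for TEC genes, -0.23 for antisense genes, -0.06 for processed_transcript genes and -0.01 for lincRNA genes, and 0.04 for protein-coding genes. The constant of 1 TPM weighs more on classes of lower level, and its part in these differences was not tested. The 94 distinct host genes had a median of -0.16. Among members, the 41 with several exon blocks had a median of -0.43 and the 86 with 1 exon block a median of -0.14. The 4 sense_overlapping genes were all above 0 on this scale, with a median of 0.21. BX649560.1 (0.08) and AC157931.1 (0.03) lay near 0, and had fewer counts in replicate 2 (210 and 204, 53 and 48). Gm20712 (29 and 38) and Gm48286 (11 and 14) had more. The middle 50% of all members (-0.54 to 0.12) overlaps that of protein-coding genes (-0.27 to 0.37).

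**Figure D2:**
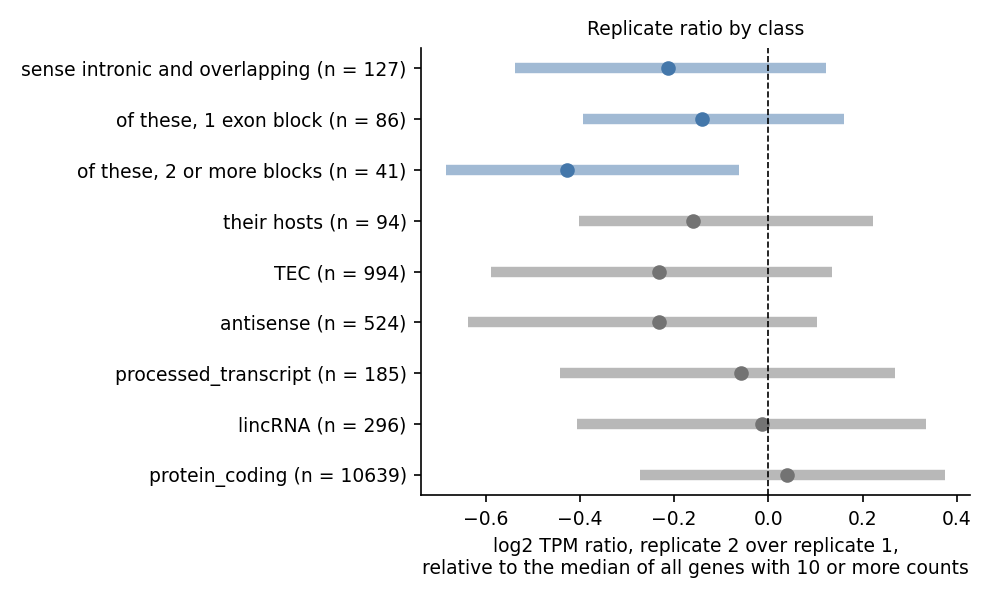
Relative log2 TPM ratio of replicate 2 over replicate 1 by class, with the median as a dot and the middle 50% of genes as a bar; the dashed line is the median over every gene that met the count minimum. The median lies at -0.21 for the 127 genes, -0.43 for the 41 with several exon blocks and 0.04 for protein-coding genes, and the bars overlap.

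Among the 71 members with 50 or more counts in both libraries, Gm20705 (chr6:99384607-99388499), a spliced gene in Foxp1, which encodes a forkhead transcription factor of the monocyte lineage, had the lowest ratio. It had 22.1 and 7.02 TPM (529 and 254 counts), a relative log2 ratio of -1.02, while Foxp1 had 265 and 111 TPM. Next came Gm43331 in Rap1a (15.2 and 4.77 TPM, -0.98), Gm47920 in Zmiz1 (12.7 and 3.93, -0.97), Gm48194 in Tut7 (-0.88) and Gm43111 in Cdk14 (7.39 and 2.21, -0.88). At the other end, Gm28941 (chr1:82739691-82740707), in the mitochondrial fission gene Mff, had 7.37 and 8.41 TPM and a relative log2 ratio of 0.67. Gm29170 in the deubiquitinase gene Uchl5 (3.64 and 3.58 TPM, 0.48), Gm15903 in Nipsnap2 (4.41 and 4.05, 0.40), Gm17491 in the phosphate transporter gene Slc20a2 (5.05 and 4.54, 0.37) and Gm28229 in Gm20537 (6.35 and 5.64, 0.35) followed. Only Gm28941, Gm29358 and Gm47739 of the 127 had a TPM in replicate 2 as high as in replicate 1.

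Nearly all members sit in a transcribed host. A host, the gene of another type on the same strand that overlaps most of the member's bases, was found for 126 members, of which 123 lie in a protein-coding, 2 in a processed_transcript and 1 in a lincRNA gene. Wholly inside the host's span lay 124 members, and 2 had exon bases in host exons. The median member began 36.4 kb from its host's start in a host of median span 98.1 kb, with the nearest host exon 5.46 kb upstream and 7.05 kb downstream. The host had 100 or more counts in both libraries for 109 members (85.8%), against 72 of the 230 other genes of the types (31.3%), and the median host level was 12.7 TPM against 0.480 TPM. Genes of the types that reached the minimum thus lay in more strongly counted hosts than those that did not.

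Of 109 listed macrophage, inflammatory and nuclear RNA genes, all found in the annotation, none is the host of a member. Only 1 of all 357 genes of the types has a listed host, so this absence says little about the members. That host is Dusp1, a phosphatase gene that toll-like receptor signalling induces. It holds AC122252.1, which had 2 counts in each library while Dusp1 had 3406 and 2262 counts.

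The level of a member went in part with that of its host. The median member stood at 27.6% of its host's mean TPM (15.3% to 48.2% for the middle of the members), a log2 ratio of -1.86, and the median was -1.83 in replicate 1 and -1.96 in replicate 2. Across the 126 pairs the Spearman correlation of mean TPM was 0.65, a description over genes that share libraries and, in part, hosts. Genes under the count minimum do not enter, so members of weakly counted hosts tend to be high against them by this choice. In both libraries 6 members stood above their host, 6 further did so only in replicate 1 and 1 only in replicate 2, and 14 members stood below 10% of their host.

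Above its host in both libraries was Gm47357 (chr12:34623907-34628638) in the histone deacetylase gene Hdac9, with 12.6 and 7.98 TPM against 4.56 and 1.99 TPM. Its level is uncertain, because 89.6% of its stretches of 31 bases also occur in other genes. Gm28229 (chr9:88441500-88443652) in Gm20537, a gene annotated as protein-coding, had 6.35 and 5.64 against 0.850 and 2.02 TPM. Gm17491 exceeded Slc20a2 at 3.99 and 2.44 TPM in the gene tables only, since in the read-based tables it had 4.59 and 3.99 TPM against 9.25 and 6.01. BX649560.1 exceeded Col20a1, which it partly overlaps, and AC157931.1 exceeded B3gnt4, which it spans. Gm42868 (chr3:100497429-100500125), with 2.21 and 1.56 TPM from 77 and 82 counts, lies in Gm12474, which had 2 and 1 counts. No fold is given against Gm12474 and B3gnt4, each with under 4 counts in a library. The lowest against the host were Gm43112 in Cdk14 (3.54%), Gm47739 in the helicase gene Mcm9 (3.95%) and Gm43031 in the scaffold gene Akap9 (4.01%). In the read-based tables Gm47739 stood above Mcm9 instead, at 21.8 and 12.1 against 9.24 and 6.36 TPM, so its level is uncertain, and 98.5% of its stretches of 31 bases also occur in other genes. There, 12 members stood above their host in both libraries, and 5 did so in both kinds of table.

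Members more than 100 kb from the start of a host stood farther below the host's level than members nearer to it. Of the 124 members inside their host, 25 began under 10 kb from its start and had a median of 43.1% of the host's mean TPM. The median was 33.6% for 29 members at 10 to 30 kb, 26.7% for 45 at 30 to 100 kb and 15.2% for 25 beyond 100 kb. The members' own level did not fall in step: the median of mean TPM was 3.445, 4.655, 2.685 and 2.815 TPM over these ranges. By library, the median percents of the host were 41.9%, 33.7%, 27.7% and 16.7% in replicate 1 and 30.2%, 29.7%, 25.7% and 16.4% in replicate 2. In replicate 2 the ranges under 30 kb were level. In the read-based tables the median percents were 33.2%, 33.1%, 28.1% and 14.4%, level under 30 kb too. Over all 124 the Spearman correlation of the log2 ratio to the host with distance was -0.34 (-0.35 in replicate 1 and -0.26 in replicate 2), and -0.34 in the read-based tables. It was -0.32 without Cdk14 and Magi3 (108 members) and -0.29 with 1 member for each of 92 hosts, the nearest to the start. These correlations are descriptions across genes, and members of 1 host share its level as the denominator.

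**Figure D3:**
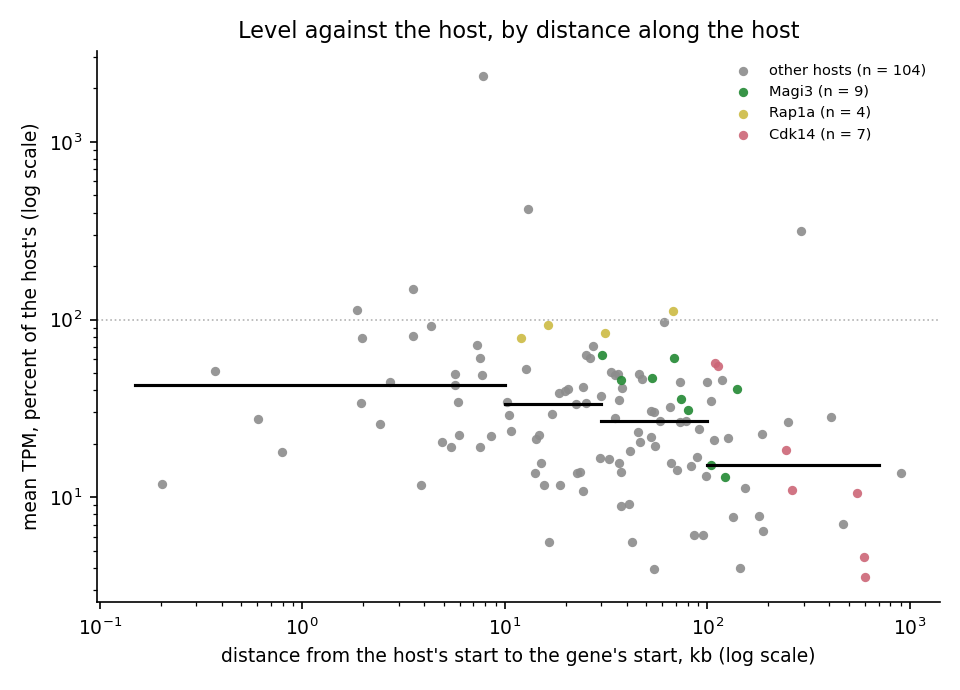
Mean TPM of each of 124 genes as a percent of its host's (vertical, log scale) against the distance from the host's start to the gene's start in kb (horizontal, log scale), with the genes of Cdk14, Magi3 and Rap1a coloured; black lines are the medians of the 4 distance ranges and the dotted line is the host's own level. The medians of the mean over both libraries go from 43.1% under 10 kb to 15.2% beyond 100 kb, with 30.2% and 16.4% in replicate 2 alone, and single genes spread widely around them.

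Within hosts that hold several members, where the host's level is constant, the order by distance differed between hosts and between the tables. There were 14 hosts with 2 or more members, which held 46 members between them, and 6 with 3 or more. Cdk14 spans 617 kb and holds 7 members. From its start onwards they were Gm43728 (32.7 and 19.6 TPM), Gm43727 (33.5 and 16.2), Gm10484 (9.66 and 7.11), Gm43577 (6.09 and 3.87), Gm43111 (7.39 and 2.21), Gm43113 (2.68 and 1.5) and Gm43112 (2.35 and 0.880). The mean of the highest was 16.2 times that of the lowest, and in replicate 2 each member was lower than the one before it. In replicate 1, Gm43727 and Gm43111 were each higher than the member before them. In the read-based tables the first pair was also the highest, at 29.2 and 20.4 and at 21.9 and 12.4 TPM, but Gm43113 near the end had 11.1 and 4.17 TPM. Cdk14 itself had 59.0 and 32.2 TPM.

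Magi3, a scaffold gene of cell junctions, holds 9 members of its 11 genes of the types, 7 of them before its second exon block. Its own level was only 3.47 and 2.57 TPM. From the start onwards, Gm43256 had 2.67 and 1.16 TPM, Gm43260 2.09 and 0.660, Gm43259 1.79 and 1.03, Gm43258 2.05 and 1.60, Gm42701 1.23 and 0.920 and Gm42702 1.21 and 0.660. Then came Gm42699 (0.590 and 0.330), Gm42700 (0.580 and 0.210) and 9530097N15Rik (1.84 and 0.610). Gm42699 and Gm42700, both beyond 100 kb, were the lowest in each library of the gene tables. All 3 rest on few counts, with 12 and 10 for Gm42699, 18 and 10 for Gm42700 and 22 and 11 for 9530097N15Rik. The read-based tables do not show that order: Gm42701 (0.746 and 0.570 TPM) was lower there than Gm42699 (0.822 and 0.618) and Gm42700 (0.992 and 0.867) in both libraries, and 9530097N15Rik, the farthest from the start, had 2.50 and 2.65 TPM.

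Rap1a, Man1a2 and Lrig2 did not show a fall along the gene. In Lrig2, the member nearest the start, 4930509H03Rik, had 3.34 and 2.08 TPM, A530041M06Rik 4.49 and 2.27 and Gm43696 3.56 and 1.94. The 4 members in Rap1a were alike from the first to the last, with 15.2 and 4.77 TPM for Gm43331, 16.7 and 6.83 for Gm43330, 15.6 and 5.51 for Gm43329 and 20.0 and 8.05 for Gm43328, which is the farthest from the start. Rap1a had 13.6 and 11.7 TPM, so its members stood at or above it in replicate 1 and below it in replicate 2. This holds in the gene tables only: in the read-based tables Rap1a had 37.3 and 16.8 TPM, and all 4 members lay below it in both libraries, at 10.7 to 15.6 and 4.40 to 6.14 TPM. In Man1a2, a Golgi mannosidase gene, Gm43463 had 4.57 and 2.32 TPM, Gm43462 6.75 and 4.10, Gm42869 5.86 and 3.71 and Gm43466 2.59 and 2.14, while Man1a2 had 25.8 and 9.99 TPM. The other 10 hosts held 2 or 3 members each, among them Lrig2 and Snx27 with 3, and Capza1, Hipk1, Hs2st1, Ikzf2, Rabgap1l, Slc16a1 and Wars2 with 2. Their highest member stood at 1.25 to 3.74 times the lowest in mean TPM. Of the 8 hosts with 2 members, the one nearer the start was the higher in 8 in replicate 1 and in 7 in replicate 2, but in 5 and 4 in the read-based tables.

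**Figure D4:**
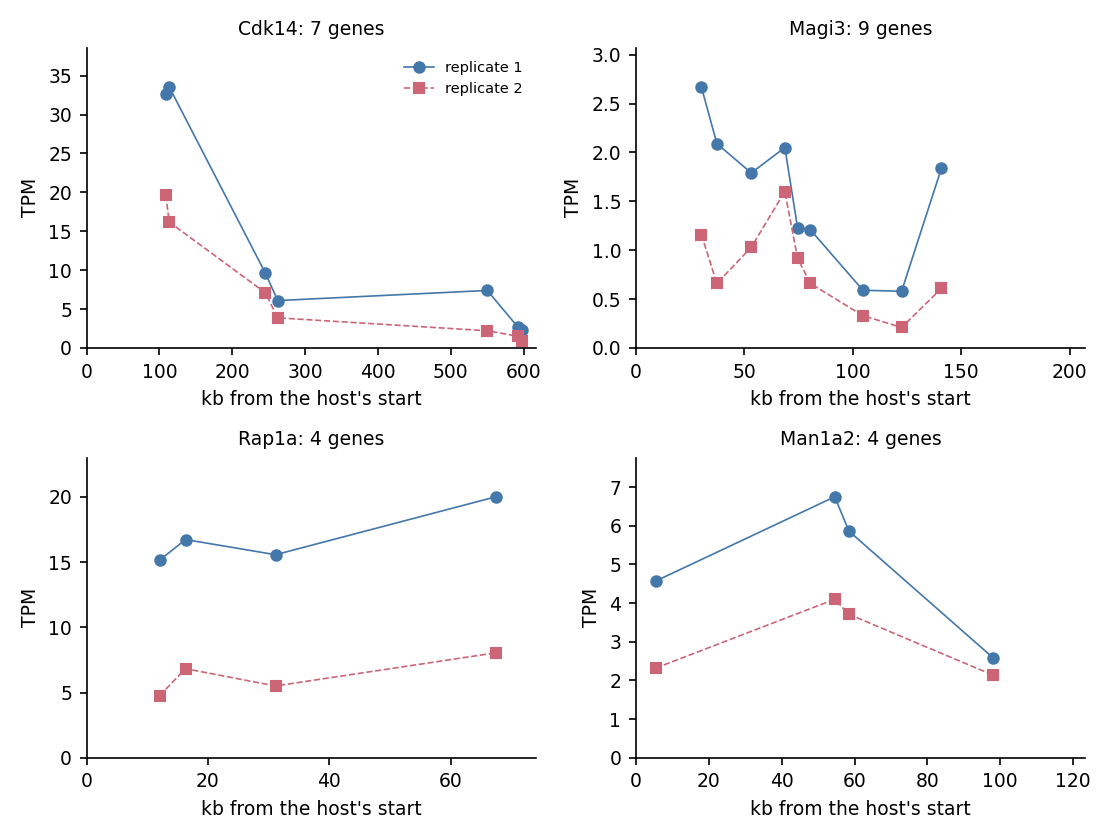
TPM of the genes inside Cdk14, Magi3, Rap1a and Man1a2 (vertical, linear from 0) by the distance in kb from the host's start (horizontal, to the host's end), circles for replicate 1 and squares for replicate 2. These gene-table levels go from 32.7 and 19.6 TPM to 2.35 and 0.880 TPM along Cdk14, and are alike along Rap1a.

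Between libraries, genes of 1 host had like ratios that could differ from the host's own. In Rap1a all 4 members had relative log2 ratios from -0.98 to -0.68 and Rap1a 0.30, so that each was 0.98 to 1.28 below its host. In the read-based tables this gap was not there, with differences from the host of -0.11 to 0.02. In Man1a2 all 4 were 0.54 to 1.09 above the host, which had -0.79, and 0.51 to 0.81 above it in the read-based tables. The 2 members of Slc16a1, a lactate transporter gene, had -0.63 and -0.62 against 0.38 for the host, and were 0.90 and 0.82 below it in the read-based tables. In the 6 hosts with 3 or more members the SD of the relative log2 ratio within a host had a median of 0.25, against 0.41 over all members. Over the 126 pairs the median difference of member minus host was -0.09, with 70 members below their host and 56 above, and its sign turned in the read-based tables (0.012). The Pearson correlation of the log2 ratios of member and host was 0.15 and the Spearman correlation 0.14, as a description across genes.

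The read-based tables gave other levels for part of the members. Over the 127, the Spearman correlation of mean TPM between the tables was 0.77, and the median log2 ratio of read-based over gene-table TPM was -0.12. The read-based value was higher by 2-fold or more for 27 members (21.3%, background 11.9%) and lower by as much for none (background 1.3%). The share higher by as much was 29.7% for lincRNA, 25.9% for processed_transcript and 23.9% for antisense genes. It was 13.8% for TEC and 10.5% for protein-coding genes, so the excess is not particular to members. In the read-based tables the members took 0.221% and 0.158% of estimated counts. Of the 127, 119 had whole-number expected counts in both gene tables (within 0.005).

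The gap between the tables went with sequence that members share with other genes. Each member's transcripts were cut into words of 31 bases, and the share of these found in transcripts of other genes on the same strand was counted. In 47 members no word was shared, and their median log2 ratio of read-based over gene-table TPM was -0.42, with 2 at 2-fold or more. The median was 0.13 for 59 members with up to 5% of words shared (17 at 2-fold or more), 0.48 for 15 with above 5% to 15% (5) and 1.04 for 6 with more (3). Across members the Spearman correlation was 0.55, as a description. Of the 80 members with a shared word, 12 had a repeat of 1 or 2 bases as their most shared one, found in up to 1366 other genes. To show words that are no such repeat, the one found in most other genes is printed for Gm38115, where it was in 356 other genes, and for Gm28586, where it was in 301.
Gm38115: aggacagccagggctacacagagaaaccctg
Gm28586: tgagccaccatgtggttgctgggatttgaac

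Both are widespread in annotated transcripts, the first resembling the B1 and the second the B2 family of short interspersed elements, mobile sequences scattered through mouse introns. Gm28586 in the adaptor gene Nck1 had 4.73 and 2.36 TPM in the gene tables but 45.4 and 20.5 TPM in the read-based tables, from 16 and 12 against 292 and 266 counts. Shared words do not go with every large gap, since 4930596I21Rik in Dennd1b, with 0.232% of words shared, had 8.99 and 2.89 TPM in the gene tables and 72.9 and 25.2 TPM in the read-based tables.

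The largest gap was in Gm47739 (chr10:53570625-53575756), with 0.460 and 0.520 TPM in the gene tables and 21.8 and 12.1 TPM in the read-based tables. Of its words, 98.5% also occur in other genes. AC113485.1 in Sgms1 (94.1% of words shared) had 7.58 and 2.94 TPM and 22.3 and 11.2 TPM, and Gm47357 in Hdac9 (89.6%) had 12.6 and 7.98 TPM and 13.9 and 9.67 TPM. These 3 spliced genes on 3 chromosomes have 2675 words each and share 62.1% to 67.4% of them pairwise, so they are near-copies of one sequence and the level of each is uncertain. Gm29055 in Dis3l2 shares 51.7% of its words, with 1.47 and 1.39 TPM and 15.3 and 7.24 TPM, and is uncertain for the same reason.

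**Figure D5:**
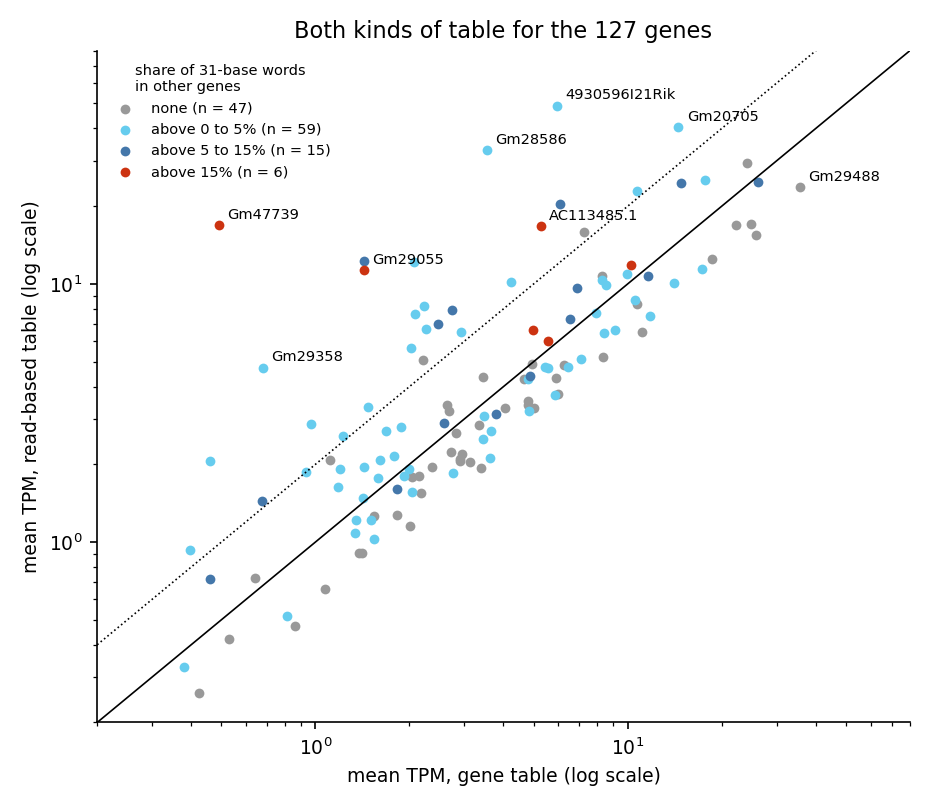
Mean TPM of each of the 127 genes in the gene tables (horizontal, log scale) and the read-based tables (vertical, log scale), coloured by the share of its 31-base words found in other genes; the solid line marks equal values and the dotted line 2-fold. The 27 genes on or above the dotted line include Gm47739 with 98.5% of words shared and 4930596I21Rik with 0.232%.

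Genes on the other strand are a further limit, because whether counting used strand is not given in the sources used here. Exon bases of 10 members lie in exons of a gene on the opposite strand, all of them in Gm29358 in Pnkd and 60.7% in Gm47644 in Cep85l. Gm29358 had 0.680 and 0.680 TPM in the gene tables and 7.44 and 2.04 TPM in the read-based tables, and 99.1% of its words occur in other genes on either strand but only 0.490% on its own strand.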

How the data were processed

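Members, gene lists and tests were chosen with earlier results of these data known. Total RNA of 2 libraries was analysed; the genome was mm10 with GENCODE M21, per the labels' accompanying notes, while no aligner, quantifier, version or strand setting is given in the sources used here. The authors deposited, per library, expected counts per gene and transcript, which are estimated counts and partly fractional, per the file headers. The deposited TPM values are scaled to effective length and to one total per table, per the file headers. FPKM, also deposited by the authors, served as an alternative only. Read-based estimated counts and TPM, also deposited, were summed per gene.

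Genes were typed by the transcript type in the read-based table, joined by identifier, and placed by the M21 annotation. Overlapping exons of all isoforms were merged into blocks. Levels are TPM of the gene tables, and a difference between libraries was taken past a relative log2 ratio of 1, with a pseudocount of 1 TPM. Totals were 14374739 and 16372797 counts, and 20813687 and 27466816 in the read-based tables. Named were the 10 highest members by mean TPM and by mean count, the 5 highest and 5 lowest ratios among members with 50 or more counts in both, the 3 nearest either side of the threshold, all sense_overlapping members, the 5 highest and 3 lowest against their host, hosts with 2 or more members (in full for the 4 with 4 or more), and members in hosts of a fixed list; 1 of these members and 1 host are not reported here. Sequences came from the M21 transcripts. TMM of edgeR 4.0.16 and size factors of DESeq2 1.42.0 (R 4.3.3), on expected counts rounded to whole numbers, served only as scalings, and were checked on simulated data, as was the word search. The rest ran in Python 3.11.15 with scipy 1.17.1, numpy 2.4.6, pandas 2.3.3 and matplotlib 3.10.9. With 2 samples in 1 group no test was made. The alternatives are in the closing section.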

Additional observations from a re-analysis of the deposited data

How the results depend on the processing

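With 1 group of 2 libraries the results are descriptions, and the cause of each shift below was not tested. The number of members was 232 where the minimum was applied to read-based counts. The share of counts was 0.190% in the read-based tables, and without either library it ranged from 0.105% to 0.153%. The median level was 4.44 TPM at a minimum of 20 counts, where fewer low genes enter, 0.355 TPM with no minimum, and 2.08 to 4.05 TPM without either library. The median replicate ratio of members stayed below 0 under every setting run. It was -0.38 for counts scaled by TMM, -0.39 by DESeq2 size factors, -0.61 as CPM (where the median of all genes lies at -0.21), -0.33 with a pseudocount of 0.1 and -0.36 with none. Without a pseudocount, an alternative added after seeing the data, 11 members and not 1 were lower in replicate 2 by a relative log2 ratio of 1 or more (background 6.18%). The median log2 member over host was -1.99 with read-based TPM and -2.58 with counts, and -1.96 to -1.83 without either library. The median log2 ratio of member minus host reversed to 0.0123 with read-based TPM, and was -0.31 with no pseudocount and -0.33 with counts. Of the 34 planned comparisons with an alternative, 19 stayed the same, 14 moved and 1 reversed. Same meant within 1.5-fold for numbers of genes and within 0.1 for log2 ratios between replicates. For the other results it meant within the SD of the 2 libraries. Leaving out a library always shifts the mean share of counts by less than that SD, so for the share this setting could not count as moved. No paired analysis was possible because there is only 1 group. Depth limits members near 10 counts.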

Other observations

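In the transcript tables, retained_intron transcripts held a median of 33.6% and 30.6% of a host's TPM in replicates 1 and 2 over 72 protein-coding hosts with such a transcript and 1 TPM or more in both. Over all 5732 protein-coding genes chosen the same way the medians were 38.4% and 31.9%. The 35 members with a hexamer in the last 50 bases had a median of mean TPM of 2.69 and a median relative log2 ratio of -0.03, against 3.23 and -0.26 for the 92 without one, and 24 of the 35 had 1 exon block, against 62 of the 92.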
